A study of Mus musculus with 28 samples.

Results

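Ldb1 binding was compared between mouse olfactory neurons that had lost Lhx2 and neurons sorted for the odorant receptor Olfr1507. Members are the peaks of 4 chromatin immunoprecipitation (ChIP) libraries on chromosomes 1 to 19, X and Y: 4290 and 542 peaks in the Lhx2 KO libraries, and 5095 and 21250 in the Olfr1507 libraries. These 31177 peaks are part of the 201457 peaks in 11 lists (Ldb1, CTCF and Rad21), and the 4 libraries are part of a series of 28 samples. Lhx2 KO neurons carried OMP-IRES-Cre, a floxed Lhx2 gene on both chromosomes (Lhx2fl/fl) and the reporter Rosa-CAG-tdtom+/fl. Olfr1507 cells carried M28-IRES-GFP, and their label names no altered Lhx2 allele. In 3 further Ldb1 libraries, used here as a second look at binding with Lhx2 present, mature neurons carried OMP-IRES-GFP and are called control neurons. All cells came from dissociated olfactory epithelium, were fixed with formaldehyde before sorting, and were immunoprecipitated with the same Ldb1 antibody. Ages are not given in the labels of these libraries. Cre driven from the Omp locus acts once neurons are mature, so the deletion tests binding in mature cells. Peak lists show neither the deletion nor expression, so the genotype and the cell type were not checked here beyond looking up marker genes for peaks. The groups differ in more than Lhx2: the labels of KO neurons name no receptor, while Olfr1507 cells are selected for 1 receptor. The reporter and sort also differ. These differences cannot be told apart within the comparison of Lhx2 KO with Olfr1507 cells. Nothing in the labels ties a library to its own animal, so every p-value here reflects variation among libraries that may be technical in origin.

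Ldb1 is a bridging cofactor that does not read DNA itself. It forms dimers and multimers, and it is held on chromatin by proteins that do, above all LIM-homeodomain factors such as Lhx2 and LIM-only proteins joined to zinc-finger or bHLH factors. In olfactory neurons Lhx2 and Ebf factors bind together at distal enhancers, including enhancers inside odorant receptor (OR) gene clusters, and the meeting of such enhancers from different chromosomes accompanies the choice of a receptor gene. CTCF is a DNA-binding protein of domain boundaries, and Rad21 belongs to cohesin, the ring complex that CTCF halts. Lhx2 KO neurons thus show where the Ldb1 antibody still enriches DNA when its main LIM-homeodomain partner in these cells is deleted.

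The letters of 6 gene starts show what windows with a Ldb1 peak look like. Each is the 250 bases before an annotated start (RefSeq, GRCm38.p6). Pde4a, Nod2 and Hjurp are among the highest-ranked of their class, Clip4 and Sult1d1 were picked because they hold a homeodomain core, and Spcs1 because its letters resemble those of the Lhx2 KO only windows. All were picked with their letters in view, so the shares over all windows, given after them, describe the classes. Capitals mark GGGCGG (or CCGCCC on the other strand), the core of the GC box read by Sp and Klf proteins, and TAATNA (or TNATTA), the core read by homeodomain proteins such as Lhx2. Pde4a, Nod2 and Hjurp had a peak in the Lhx2 KO list only, Clip4 and Spcs1 in the Olfr1507 list only, and Sult1d1 in both, when the first library of each group was cut to equal length.
Pde4a (chr9:21183851-21184100, plus strand, Lhx2 KO only): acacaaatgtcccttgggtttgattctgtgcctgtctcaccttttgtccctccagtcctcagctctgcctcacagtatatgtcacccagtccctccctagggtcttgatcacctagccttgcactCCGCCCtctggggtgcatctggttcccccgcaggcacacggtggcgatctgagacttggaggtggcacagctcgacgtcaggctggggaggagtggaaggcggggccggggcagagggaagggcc
Nod2 (chr8:88647097-88647346, plus strand, Lhx2 KO only): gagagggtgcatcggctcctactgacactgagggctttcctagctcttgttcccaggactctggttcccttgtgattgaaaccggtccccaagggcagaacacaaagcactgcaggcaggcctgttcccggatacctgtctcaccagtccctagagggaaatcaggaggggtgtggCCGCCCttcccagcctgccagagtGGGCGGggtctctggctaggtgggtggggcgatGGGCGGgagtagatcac
Hjurp (chr1:88277580-88277829, minus strand, Lhx2 KO only): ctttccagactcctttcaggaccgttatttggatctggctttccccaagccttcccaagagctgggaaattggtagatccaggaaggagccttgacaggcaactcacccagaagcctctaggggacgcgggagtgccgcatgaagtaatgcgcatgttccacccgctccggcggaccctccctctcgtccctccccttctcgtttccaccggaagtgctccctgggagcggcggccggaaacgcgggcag
Clip4 (chr17:71769441-71769690, plus strand, Olfr1507 only): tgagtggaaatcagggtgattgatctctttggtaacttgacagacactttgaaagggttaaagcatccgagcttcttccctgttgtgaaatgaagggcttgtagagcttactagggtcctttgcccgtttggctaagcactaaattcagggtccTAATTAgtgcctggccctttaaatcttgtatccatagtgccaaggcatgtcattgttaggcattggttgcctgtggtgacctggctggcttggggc
Spcs1 (chr14:31001667-31001916, minus strand, Olfr1507 only): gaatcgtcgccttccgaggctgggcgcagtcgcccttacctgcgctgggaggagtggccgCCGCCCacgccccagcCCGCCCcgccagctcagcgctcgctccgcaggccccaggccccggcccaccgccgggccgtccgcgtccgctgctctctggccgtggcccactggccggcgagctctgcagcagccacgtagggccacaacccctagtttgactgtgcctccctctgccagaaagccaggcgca
Sult1d1 (chr5:87569007-87569256, minus strand, shared): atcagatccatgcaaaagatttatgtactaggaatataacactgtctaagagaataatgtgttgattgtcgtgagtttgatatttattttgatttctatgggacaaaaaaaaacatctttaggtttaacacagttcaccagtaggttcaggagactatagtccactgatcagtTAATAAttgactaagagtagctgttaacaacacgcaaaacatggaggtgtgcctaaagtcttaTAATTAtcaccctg
Pde4a encodes a cAMP phosphodiesterase, and its window was 61.2% G and C with 8 CpG steps. That of Nod2, a sensor of bacterial cell walls, held 3 GGGCGG cores and ranked 109 and 238 in the Lhx2 KO lists, against 4861 and 3400 in the Olfr1507 lists. Hjurp, a chaperone of centromeric histone, had 16 CpG steps, none of the marked cores, rank 143 in the first Lhx2 KO list, and no peak in the second Lhx2 KO list or in any Olfr1507 or control Ldb1 list. Clip4, a microtubule-binding protein gene, and Sult1d1, a sulfotransferase gene, were AT-rich, at 47.2% and 34% G and C. Clip4 ranked 1644 and 1235 in the Olfr1507 lists and was in neither Lhx2 KO list. Spcs1, which encodes a subunit of the signal peptidase complex, was also in neither, ranked 1668 and 2351 in the Olfr1507 lists, and had 74% G and C, 26 CpG steps and 2 GGGCGG cores. Sult1d1 was in all 4, at ranks 118 and 369 in the Lhx2 KO lists and 687 and 1441 in the Olfr1507 lists. Better-ranked windows without a homeodomain core were those of Fam214a (shared, rank 4 in the first Lhx2 KO list, 64.4% G and C, 20 CpG steps) and Pth2, a neuropeptide gene (Olfr1507 only, rank 998, 50% G and C, 1 CpG step).

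Over all windows that met a peak, the same letters differed between the classes. GGGCGG stood in 710 of 950 Lhx2 KO only windows (74.7%), against 10 of 43 Olfr1507 only windows (23.3%). It stood in 4 of 24 shared windows and in 32.7% of all 32807 windows searched. TAATTA, which is its own reverse complement, stood in 11 Lhx2 KO only windows (1.16%), against 9 Olfr1507 only windows (20.9%), with 7 shared windows (29.2%) and 4.85% of all windows. CCGGAAG, the core of the ETS family site, was in 15.4% of Lhx2 KO only and 6.98% of Olfr1507 only windows (6.91% of all). TATAAA was in 3.26% of Lhx2 KO only and 9.30% of Olfr1507 only windows (12.4% of all). The median G and C content was 65.8% in Lhx2 KO only windows, 50.8% in Olfr1507 only windows and 52.4% in all, and the median number of CpG steps was 22, 5 and 6. The 88 windows met by the second Lhx2 KO library, which took no part in these classes, had 65.2% G and C, GGGCGG in 77.3% and TAATTA in 7.95%. The second Olfr1507 library, which took no part either and has a far longer list (21250 peaks), met 1430 windows. These had 58.8% G and C, GGGCGG in 59.2% and TAATTA in 7.62%, so its TAATTA share was close to that of the second Lhx2 KO library. Both strands were searched, the letters of different motifs may overlap, and a match is a description of letters, not a binding site. The content of letters moves with G and C content, and its part in these shares was not tested.

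Peak scores are the authors' own whole numbers and served only to rank peaks within a list. They differed in range: the highest was 51 and 39 in the Lhx2 KO lists, against 242 and 624 in the Olfr1507 lists, while the lowest was 9 and 12, against 16 and 11. The narrow range of the Lhx2 KO scores left ties, with 125 peaks of the first Lhx2 KO list sharing the score at rank 542. No read numbers come with the lists, so depth is unknown, and the length of a list cannot be read as a number of bound sites. Peaks had 1 width per list, 244 and 212 bases in Lhx2 KO and 256 and 380 in Olfr1507. Lists were for this reason compared at equal length: the 542 highest-scoring peaks of all 4 libraries, where libraries are replicates, and then the first library of each group at 4290 peaks, where there is no replicate and no test.

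At 542 peaks the Olfr1507 libraries resembled each other and the Lhx2 KO libraries did so far less. The Olfr1507 lists shared 83.8% of their peaks, and the Lhx2 KO lists shared 29.3% (159 peaks). Between groups, the first Lhx2 KO list shared 15.7% and 17.3% with the Olfr1507 lists, and the second shared 33.6% and 33.8%. The second Lhx2 KO list thus overlapped either Olfr1507 list more than it overlapped its own replicate. Mean overlap within groups exceeded that between groups by 31.5 percentage points (56.5% against 25.1%), with p = 0.333 by exact permutation, the smallest that the 3 divisions of 4 libraries allow. Linked into 1325 regions, the 4 lists had 62 regions in common. Another 88 were in both Lhx2 KO and neither Olfr1507 list, 272 in both Olfr1507 and neither Lhx2 KO list, and 607 in 1 Lhx2 KO list alone, against 129 in 1 Olfr1507 list alone. Most Lhx2 KO peaks lay where Olfr1507 cells also had a peak: 87.8% of the 542 in each Lhx2 KO library overlapped a peak somewhere in the full second Olfr1507 list. Scores ordered them differently. Over peaks in both lists, Spearman's rho of the scores was 0.20 between the Lhx2 KO libraries (393 peaks) and 0.89 between the Olfr1507 libraries (4989 peaks), and it ran from 0.15 to 0.33 between groups; the scores of each Lhx2 KO list have few distinct values.

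**Figure D1:**
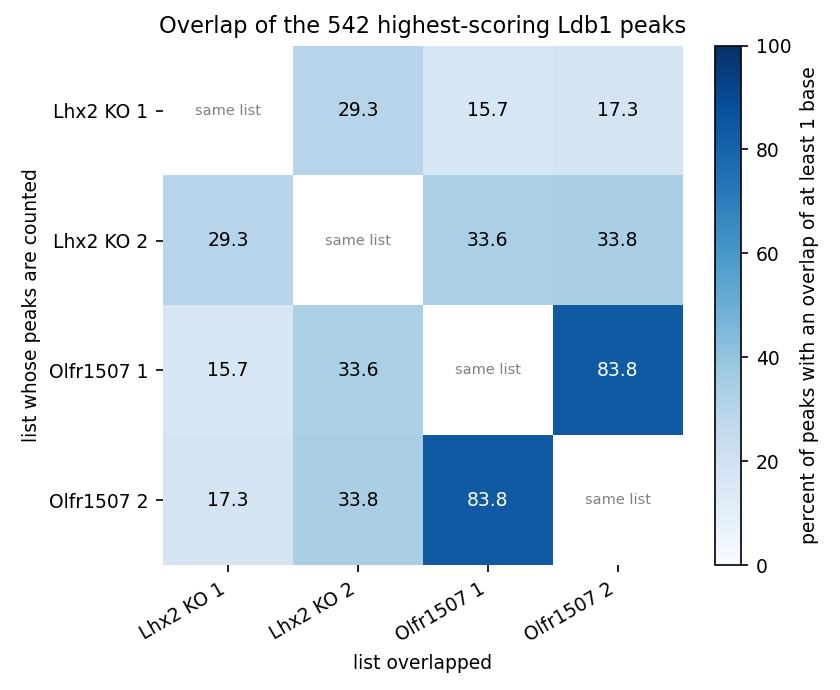
Share of the 542 highest-scoring Ldb1 peaks of one library (row) that overlapped the 542 of another (column) by at least 1 base, in percent, for 2 Lhx2 KO and 2 Olfr1507 libraries. The Olfr1507 pair shared 83.8% and the Lhx2 KO pair 29.3%, and pairs of different groups shared between 15.7% and 33.8%.

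Ldb1 peaks in Lhx2 KO neurons lay at gene starts several times as often as those in Olfr1507 cells. Of the 542 highest-scoring peaks outside chromosome 18, whose starts are not in the table used here, 13.3% and 18.2% lay within 1 kb of a start in the Lhx2 KO libraries, against 3.25% and 3.42% in the Olfr1507 libraries. The control libraries had 3.82%, 4.58% and 3.80%. Both Lhx2 KO libraries stood above all 5 others, with no overlap. The means were 15.7% ± 3.42 in Lhx2 KO and 3.34% ± 0.121 in Olfr1507 (SD, n = 2 each), a difference of 12.4 percentage points (exact permutation test over the 6 assignments of 4 libraries, two-sided p = 0.333, the smallest it allows). Set against the Olfr1507 and control libraries together, the difference was 11.97 points (2 against 5 libraries, 21 assignments, exact permutation p = 0.0476, the smallest it allows, and 0.0952 after Benjamini-Hochberg adjustment over 4 measures). With the 250 highest-scoring peaks in place of 542 it was 7.97 points.

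**Figure D2:**
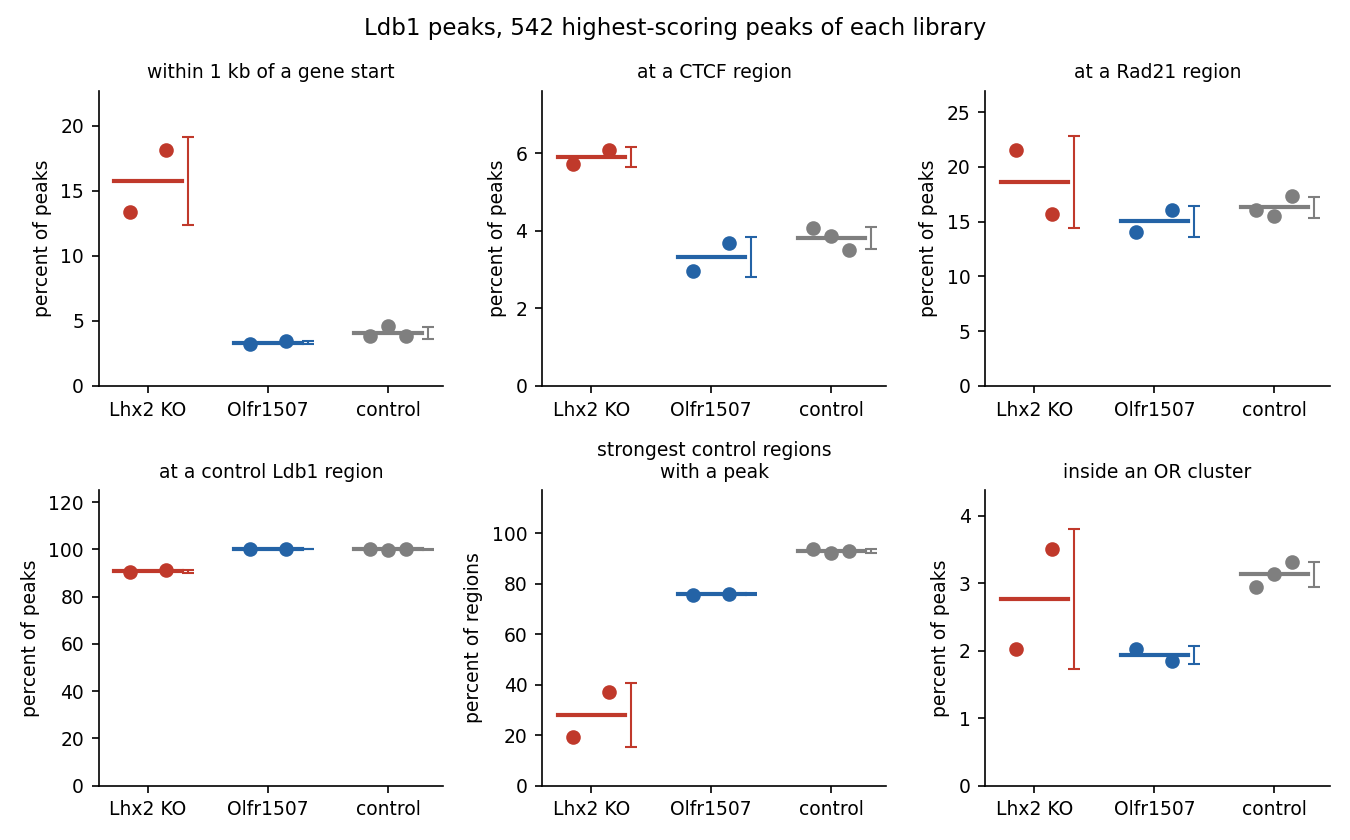
The 6 measures of the 542 highest-scoring Ldb1 peaks, in percent on linear axes from 0, by library: Lhx2 KO (2, red), Olfr1507 (2, blue) and control neurons (3, grey). Points are libraries, horizontal lines group means and vertical bars the SD. Promoter share was 13.3% and 18.2% in Lhx2 KO against 3.25% and 3.42% in Olfr1507, and the share of the strongest control regions with a peak was 19.2% and 37.1% against 75.6% and 76.0%.

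Overlap with CTCF was higher in Lhx2 KO, and that with cohesin was not separated from the spread. CTCF regions, those with a peak in both CTCF libraries of control neurons, held 5.72% and 6.09% of the Lhx2 KO peaks, against 2.95% and 3.69% of the Olfr1507 peaks and 3.51% to 4.06% of the control peaks. The group means differed by 2.58 points (5.90% ± 0.261 and 3.32% ± 0.522, SD, n = 2 each, exact permutation p = 0.333), and by 2.29 points against the 5 other libraries (exact permutation p = 0.0476, adjusted 0.0952). The difference was 0.923 points when a reciprocal overlap of 50% was asked for, 5.54 points with a peak in at least 1 CTCF library, and 1.43 points among peaks away from gene starts. Rad21 regions held 21.6% and 15.7% of the Lhx2 KO peaks, against 14.0% and 16.1% of the Olfr1507 peaks, and the groups overlapped. Their mean difference of 3.60 points (exact permutation p = 0.667) was 0.646 points without the first Lhx2 KO library. It was 7.84 points over full lists, 5.4 points at 250 peaks and 0.277 points with a peak in at least 1 Rad21 library. It turned to -0.28 points when a reciprocal overlap of 50% was asked for, and to -1.75 points with the second Rad21 library alone. Against the 5 other libraries the Rad21 difference was 2.84 points (exact permutation p = 0.190, adjusted 0.254).

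Fewer of the strongest control Ldb1 regions held a top Lhx2 KO peak than a top Olfr1507 peak. Of the 542 control regions with the highest mean rank, 19.2% and 37.1% held one of the 542 Lhx2 KO peaks, against 75.6% and 76.0% for the Olfr1507 peaks. The mean difference was -47.7 points (28.1% ± 12.7 and 75.8% ± 0.261, SD, n = 2 each, exact permutation p = 0.333). Over full lists, which differ in length, the first Lhx2 KO library held 312 of the 542 (57.6%) and the second 201 (37.1%), against 100% and 99.8% in the Olfr1507 libraries. Strong Olfr1507 peaks were thus not the ones most often without a Lhx2 KO peak: of the first Olfr1507 list cut to 4290, the first Lhx2 KO list held 52.7% of the highest-scoring bin and 13.1% of the lowest. Read from the other side, 90.2% and 91.1% of the Lhx2 KO peaks overlapped a control Ldb1 region of any strength (at least 2 of 3 control libraries), against 100% and 100% of the Olfr1507 peaks, a difference of -9.32 points (exact permutation p = 0.333), which was -18.7 points when a reciprocal overlap of 50% was asked for and -4.8 points at 250 peaks. OR clusters, runs of at least 3 OR genes with flanks of 100 kb, held 2.03% and 3.51% of the Lhx2 KO peaks, against 2.03% and 1.85% in Olfr1507. These groups overlapped (difference 0.830 points, exact permutation p = 0.667), and without the second Lhx2 KO library the difference was 0.0923 points. It was 2.8 points at 250 peaks and 1.52 points over full lists. In the control libraries OR clusters held 2.95%, 3.14% and 3.32% of the 542 peaks. Against the Olfr1507 and control libraries together, the OR cluster difference was 0.111 points (2 against 5 libraries, exact permutation p = 0.857).

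Promoter share followed the score within both Lhx2 KO lists. In the first, cut into 10 bins of 429 peaks, it was 13.5% in the highest-scoring bin and 42.3% in the lowest. In the second, cut into 5 bins, it was 7.41% in the highest and 30.4% in the lowest. The first Olfr1507 list stayed between 3.38% and 6.54% across its 10 bins. The long second Olfr1507 list had 4.88% in its highest bin and 18.1% in its lowest, so gene starts also gathered among its weakest peaks, and the highest bin of the first Lhx2 KO list stood above bins 1 to 7 of that list. Overlap with control Ldb1 regions ran the other way. It was 91.8% in the highest and 50.1% in the lowest bin of the first Lhx2 KO list, against 100% and 96.7% in the first Olfr1507 list and 99.7% and 39.7% in the second. The lists also differed in length and in score range, and the part of these differences in the promoter share was not tested.

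**Figure D3:**
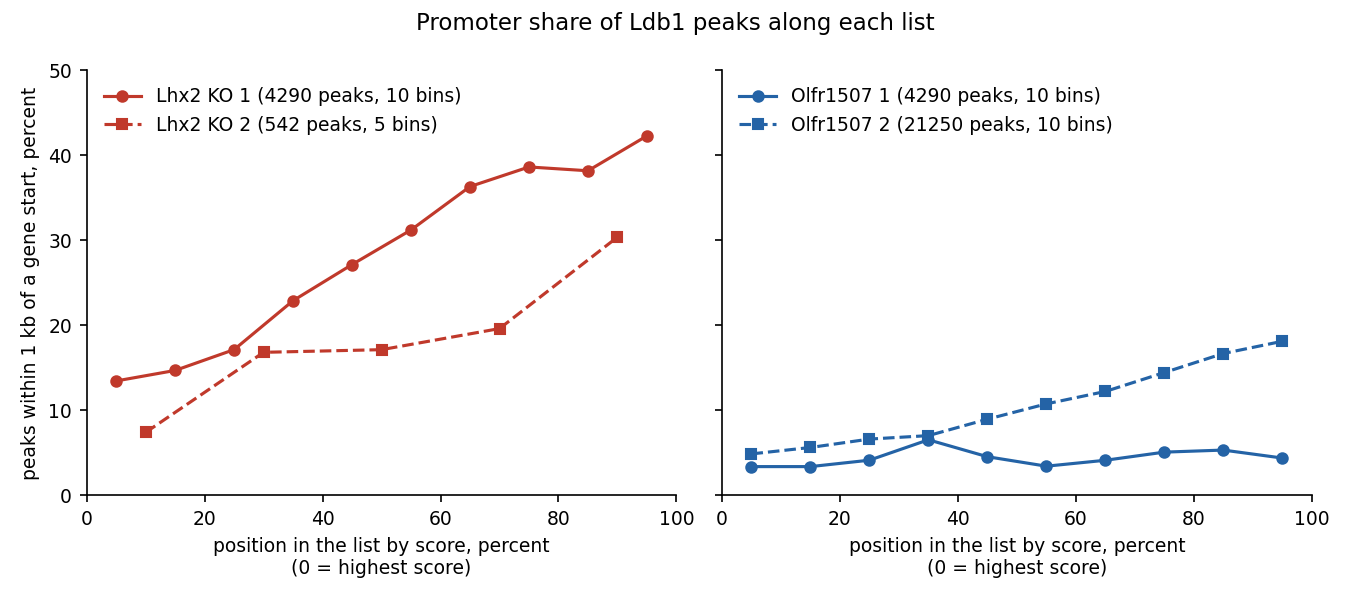
Share of Ldb1 peaks within 1 kb of a gene start, in percent, along each list from the highest score (0) to the lowest (100), for the Lhx2 KO libraries (left, red) and the Olfr1507 libraries (right, blue). Each point is a bin of the list. The first Lhx2 KO list ran between 13.5% and 42.3%, the first Olfr1507 list, cut to 4290 peaks, between 3.38% and 6.54%, and the second Olfr1507 list between 4.88% and 18.1%.

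The first libraries of each group, with lists of like length, gave the finer picture, described without a test because each group has 1 library here. Of 4290 peaks in each, 1044 were shared, or 24.3% of either list, leaving 3246 Lhx2 KO only and 3246 Olfr1507 only peaks. Gene starts took 35.2% of Lhx2 KO only peaks (1109 of 3154, 95% Wilson interval 33.5% to 36.8%), against 3.81% of Olfr1507 only peaks (119 of 3125, 3.19% to 4.54%) and 6.29% of shared peaks. The intervals cover counting error only. Over whole lists of 4290 peaks, the share was 28.2% in Lhx2 KO, against 4.44% and 5.23% in the Olfr1507 libraries and 5.01% to 5.12% in the control libraries. The median distance to a start was 6.75 kb for Lhx2 KO only peaks, 32.1 kb for Olfr1507 only peaks and 23.1 kb for shared peaks. Peak centres of the Lhx2 KO only class gathered around starts: 679 of 3154 (21.5%) fell within 200 bases, 422 of them upstream and 257 downstream, against 26 of 3125 (0.832%) for Olfr1507 only. Within 1 kb, 633 of 1086 centres lay upstream, at a median position of -34 bases. Peaks over 50 kb from any start were 16.1% of Lhx2 KO only and 37.9% of Olfr1507 only peaks.

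**Figure D4:**
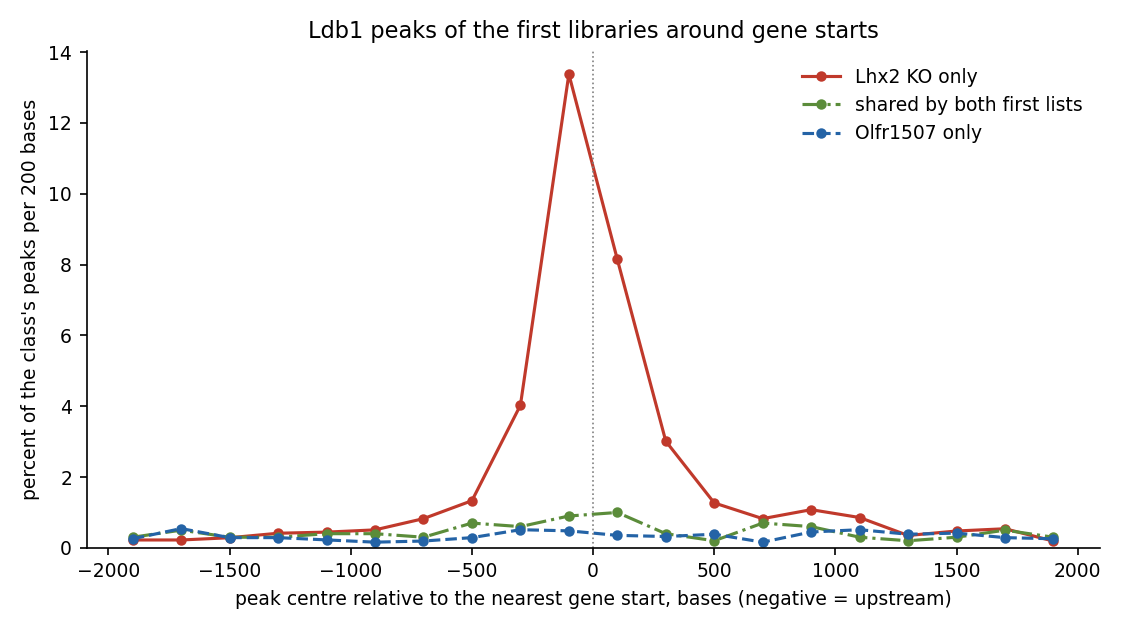
Position of Ldb1 peak centres relative to the nearest gene start, in bases (negative is upstream), as percent of each class per 200 bases, for Lhx2 KO only (3154 peaks, red), shared (1001, green) and Olfr1507 only peaks (3125, blue). Within 200 bases of a start lay 21.5% of the Lhx2 KO only class, against 0.832% of Olfr1507 only.

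The classes were then looked up in the libraries they did not use, whose lists differ in length. The second Olfr1507 library, with 21250 peaks, held 98.1% of Olfr1507 only peaks and 99.2% of shared peaks. It also held 51.9% of Lhx2 KO only peaks, at a median rank of 9428, against 2466 for Olfr1507 only and 1146 for shared peaks. The 3 control libraries held 58.8%, 61.2% and 44.7% of Lhx2 KO only peaks, against 97.5% to 98.2% of Olfr1507 only peaks. The short second Lhx2 KO library held 3.36% of Lhx2 KO only peaks (109), 2.40% of Olfr1507 only peaks (78) and 27.2% of shared peaks (284). With 542 peaks, this list could hold at most 16.7% of either exclusive class and 51.9% of the shared class if each of its peaks met 1 peak, so its low shares say little about whether a peak recurs. Without a peak in either full Olfr1507 list there remained 1558 Lhx2 KO peaks, of which 48.4% lay at a start. Of these, 935 were in no control list either, and their promoter share was 48.2%.

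CTCF and cohesin were met more often by Lhx2 KO only than by Olfr1507 only peaks. The CTCF lists overlapped 6.56% and 21.04% of Lhx2 KO only peaks, 2.90% and 5.21% of Olfr1507 only peaks, and 3.83% and 11.1% of shared peaks. The Rad21 lists overlapped 7.92% and 45.9% of Lhx2 KO only, 3.91% and 29.5% of Olfr1507 only, and 18.97% and 63.2% of shared peaks. Each share depended strongly on which of the CTCF or Rad21 libraries was read, and the order of Lhx2 KO only above Olfr1507 only held in all 4. Gene starts carried part of the contrast at CTCF. The second CTCF list held 34.5% of the Lhx2 KO only peaks at starts and 13.4% of those away from them, against 6.72% and 5.26% for Olfr1507 only. The second Rad21 list held 53.7% and 41.9% of them, against 26.9% and 29.7% for Olfr1507 only. Cohesin overlap was highest in the strongest bin of both first lists: the second Rad21 library held 68.8% of the first 429 Lhx2 KO peaks and 45.2% of the last, against 64.8% and 26.1% for Olfr1507.

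The 10 best shared peaks lay in or near genes of different kinds. The shared peak with the best combined rank was in Cmip, which encodes a signalling adaptor (ranks 18 and 107 in Lhx2 KO, 7 and 2 in Olfr1507). Zfp64, a zinc-finger gene whose peak met a CTCF peak of the second library, ranked 37 and 5 in Lhx2 KO and 2 and 3 in Olfr1507. A peak 21.4 kb from Cacna1a, the pore of P/Q-type calcium channels, ranked 6 and 29 in Lhx2 KO and 75 and 40 in Olfr1507. Homer2, a scaffold of synapses, ranked 66 and 4 in Lhx2 KO and 48 and 24 in Olfr1507, and it was the only one of the 10 best shared peaks with a peak in both CTCF and both Rad21 lists. Others were in Acbd6, Gse1 and Rgs3, and near Ttll10, Ncam1 and Mgmt. In all 4 lists of 542, a peak in Ebf3 (a partner factor of Lhx2 in these neurons) ranked 174 and 40 in Lhx2 KO and 74 and 85 in Olfr1507.

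The best Lhx2 KO only peaks were picked for a high Lhx2 KO rank and no peak in the first Olfr1507 list at equal length. In the second Olfr1507 list and the control lists they ranked lower or were absent. Those lists are longer, so ranks are not on the same scale. S100a3, a calcium-binding protein gene, had its peak 0.131 kb from the start (chr3:90587083-90587326), with ranks 7 and 138 in Lhx2 KO, no peak in the first Olfr1507 list and rank 7981 in the second. Its control ranks were 6226, 6710 and 5554. Atxn1, whose product binds transcriptional repressors, ranked 8 in the first Lhx2 KO list, was absent from the second, and ranked 3429 in the second Olfr1507 list. Pard6b, a cell polarity gene, ranked 27 in Lhx2 KO and 2616 in the second Olfr1507 list, with its peak 0.97 kb from the gene. Sdk1, a synaptic adhesion gene, ranked 23 and 8270 in these lists with a peak 0.244 kb from the gene. Tle5, a Groucho-family corepressor gene, and Il2rb, a cytokine receptor gene, had peaks 5.33 kb and 3.51 kb away at ranks 17 and 28. Among these 10, a peak within Hjurp (rank 15) was the exception, with no peak in any Olfr1507 or control list, and S100a3 alone was also in the second Lhx2 KO list. The others lay in or near Togaram2, Tex44 and Ccdc92b.

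The best Olfr1507 only peaks ranked high in control neurons too. Their absence from the first Lhx2 KO list was set by the selection. A peak 1.34 kb from Cdc42ep4, an effector of the cytoskeletal GTPase Cdc42, was in neither Lhx2 KO list, ranked 12 and 9 in Olfr1507, and ranked 90, 131 and 55 in control neurons. Phactr3, a regulator of actin and phosphatase, was absent from both Lhx2 KO lists and ranked 17 and 21 in Olfr1507. The same held in Lrguk (27 and 70) and 28.4 kb from Ccdc90b (39 and 79). Also in neither Lhx2 KO list was a peak 21.2 kb from Nek6, a mitotic kinase gene (chr2:38462413-38462668, ranks 23 and 48), on the same stretch of chromosome 2 as the Lhx2 gene itself (chr2:38339271-38369737). Of the 10, 3 were found in the second Lhx2 KO list: near Immp2l at rank 497, in Kcnh1, a potassium channel gene, at 224, and near Rpl29 at 181. Of 4989 regions in both Olfr1507 lists, 3741 (75%) had no peak in either full Lhx2 KO list, among them peaks in Rgs7, Herc3 and Mvb12b. At starts lay 4.00% of the 3741, against 4.92% of all 4989. The Lhx2 KO lists searched hold only 4290 and 542 peaks, which limits what the 75% can mean.

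Of 393 regions in both Lhx2 KO lists, 26 (6.62%) had no peak in either full Olfr1507 list (5095 and 21250 peaks). Outside chromosome 18, 14 of 25 lay at a gene start (56%), against 56 of 378 (14.8%) among all regions in both Lhx2 KO lists. Among the 14 were starts of Tcf25, Stag1 (a cohesin subunit), Opa3 (a mitochondrial protein), Mtch2 (a mitochondrial carrier relative), Tom1 (endosomal sorting) and Anxa5. Also among them were the starts of Socs3, an inhibitor of cytokine signalling, at ranks 1845 and 347, and Unc5b, a netrin receptor, at ranks 4080 and 492. The region in Actb, the cytoskeletal actin gene, ranked 811 and 534 and was in 1 of 3 control lists at rank 19412. The best-ranked of the 26, 24.5 kb from Irgm2, an interferon-induced GTPase gene, ranked 751 and 80 and was in no control list. By CTCF regions 6 of the 26 were met (23.1%), and 12 by a peak of either CTCF library (46.2%). Over all 393 regions these shares were 7.12% and 17.0%. In control neurons 10 of the 26 had no Ldb1 peak, and 5 (19.2%) had one in all 3 libraries, against 93.4% of all 393 regions in all 3.

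Genes were then read by peaks within 10 kb of their bodies. Of 21779 protein-coding genes, 2873 (13.2%) had a Lhx2 KO only peak, 1725 (7.92%) an Olfr1507 only peak and 732 (3.36%) a shared peak. These shares are the background for the lists below. The full second Olfr1507 list held 51.9% of Lhx2 KO only peaks, so the class name refers to the first libraries at equal length. Longer genes meet more peaks, and the median length of a gene was 17.2 kb over all genes, with that of each list given beside its counts. No list was tested.

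Olfactory transduction genes, the path from odorant receptor to channel, had peaks of every class. Among 20 genes (median length 67.8 kb), 14 had a Lhx2 KO only peak (70%), 13 an Olfr1507 only peak (65%) and 10 a shared peak (50%), and all 20 had at least 1. Receptor export comes first. Rtp2, a chaperone that brings receptors to the surface, had 2 Lhx2 KO only peaks at ranks 2456 and 2853. Its relative Rtp1 had 1 at rank 3772, which the full Olfr1507 lists held at ranks 4392 and 4934. Reep1 shared a peak with ranks 58 and 47 in Lhx2 KO and 580 and 506 in Olfr1507, while another, at rank 982 in Olfr1507, was missing from both Lhx2 KO lists. Of the G protein, Gng13, the gamma subunit, had a shared peak (ranks 571 and 216 in Lhx2 KO, 40 and 55 in Olfr1507). Lhx2 KO only peaks also lay at its start and 0.801 kb from it, with none in any Olfr1507 or control list. All 3 peaks of the first Lhx2 KO list near Gnb1, the beta subunit, were Lhx2 KO only, the best at rank 88 in the first Lhx2 KO list and 3705 in the second Olfr1507 list. Gnal, the olfactory alpha subunit, kept a shared peak at rank 29 in Lhx2 KO and 1102 and 909 in Olfr1507.

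Adcy3, the olfactory adenylyl cyclase, showed both patterns within 1 gene. Its start (chr12:4133252-4133495) had a Lhx2 KO only peak at rank 2161, in no Olfr1507 or control list. By contrast 4 peaks, at ranks 862, 3604, 693 and 3402 in Olfr1507, were Olfr1507 only and lay 3.25 kb from the gene or inside it, 1 of them at rank 349 in the second Lhx2 KO list. Channel genes divided. Cnga2, Cnga4 and Cnga3, genes of cyclic-nucleotide channels, had Olfr1507 only peaks (best ranks 3109, 1870 and 2965), while Cngb1 and the chloride channel Ano2 had peaks of both classes. Pde4a, which breaks down cAMP, had 4 Lhx2 KO only peaks at ranks 63, 199, 207 and 380, and none in the other classes. The full second Olfr1507 list held those at 63, 199 and 207, at its ranks 8231, 8179 and 5860. All 4 also met peaks of control lists. Omp, the gene of olfactory marker protein, had 2 shared peaks on either side, 4.99 kb and 4.35 kb away. It also had 2 Lhx2 KO only peaks that touched the gene or lay 0.115 kb from it, at ranks 2081 and 456, which were in no Olfr1507 or control list. The Omp locus carries Cre in Lhx2 KO neurons and GFP in control neurons, and any part of these alleles in the peaks was not tested.

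**Figure D5:**
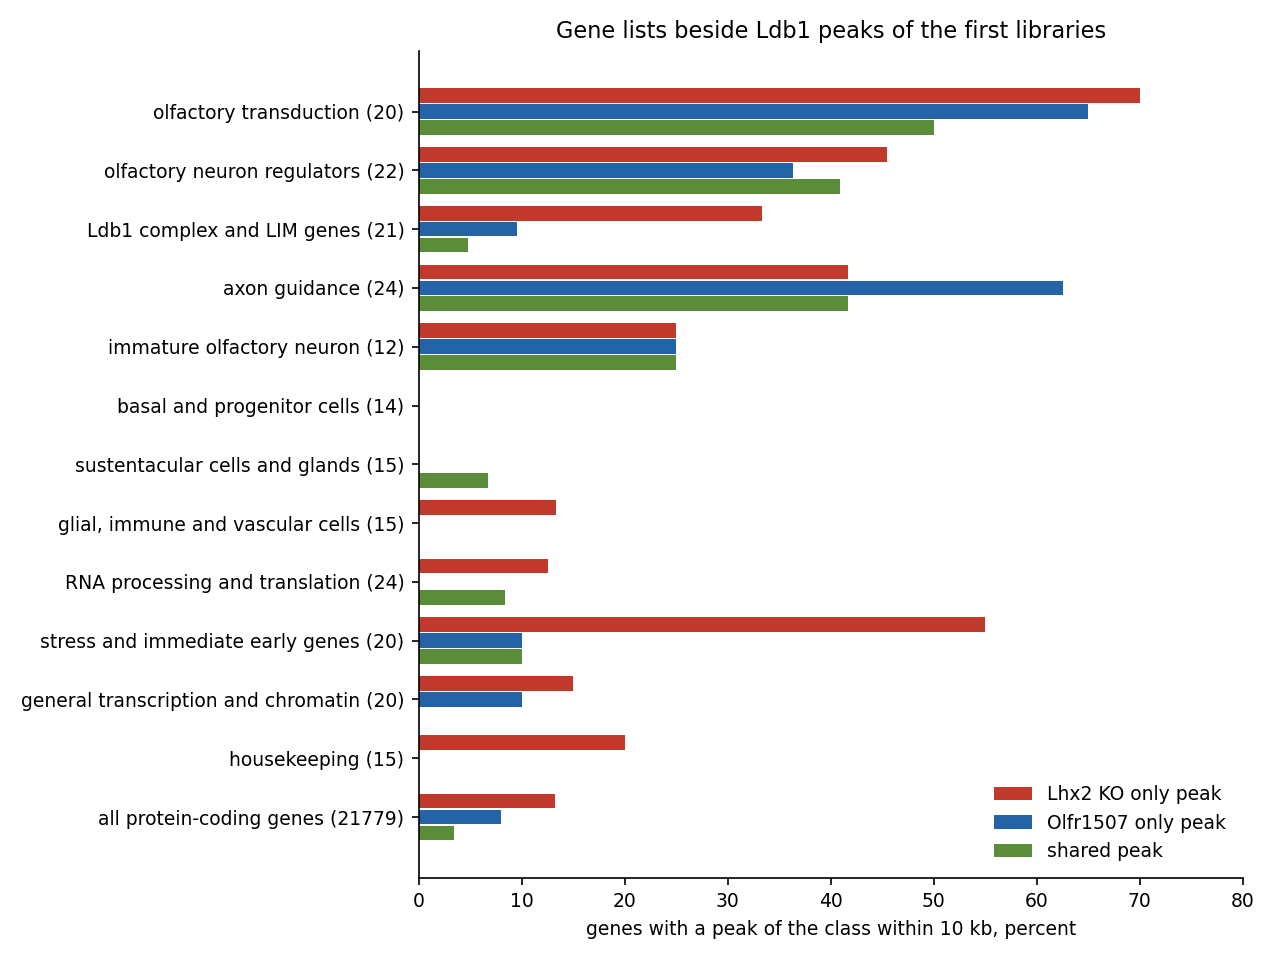
Share of genes with a Lhx2 KO only (red), Olfr1507 only (blue) or shared (green) Ldb1 peak of the first libraries within 10 kb, in percent, for 12 gene lists with the number of genes in brackets, and for all protein-coding genes. Stress and immediate early genes had Lhx2 KO only peaks at 55% and Olfr1507 only peaks at 10%, while axon guidance genes had them at 41.7% and 62.5%.

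Regulators of olfactory neurons were split as well. Of 22 genes (median length 55.7 kb), 10 had a Lhx2 KO only peak (45.5%), 8 an Olfr1507 only peak (36.4%) and 9 a shared peak. Ebf1, which encodes a factor that binds beside Lhx2, had 6 Olfr1507 only peaks, the best at ranks 236 and 257, all absent from both Lhx2 KO lists. Its 2 Lhx2 KO only peaks ranked 2768 and 3633, and the first lay 0.709 kb from its start. In full lists, Olfr1507 cells had the first at ranks 5022 and 5162, and the other at rank 8986 in the second library. Ebf2 had 8 Olfr1507 only, 4 Lhx2 KO only and 3 shared peaks. Emx2, a homeodomain gene, had an Olfr1507 only peak at ranks 792 and 1084. Zfp423, a zinc-finger partner of Ebf proteins, had 6 Lhx2 KO only peaks, the best at rank 148, against none that were Olfr1507 only. Near this gene the full Olfr1507 lists had 2 and 7 peaks. The Lhx2 gene shared a peak in its body (rank 263 in Lhx2 KO, 854 and 559 in Olfr1507), and 6.14 kb from it lay a Lhx2 KO only peak (rank 1221) that met both CTCF and both Rad21 lists. Ddit3 and Atf5, transcription factors of the stress response, each had a Lhx2 KO only peak in no other Ldb1 list (ranks 1037 and 1791). That of Ddit3 lay in the neighbouring gene Mbd6, 0.026 kb from Ddit3, and that of Atf5 in Nup62, 2.34 kb from Atf5. Atf5 also had a shared peak, at ranks 3501 and 206 in Lhx2 KO and 431 and 669 in Olfr1507. No peak of any of the 4 libraries lay near Kdm1a, a histone demethylase gene.

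Genes of the Ldb1 complex and its LIM partners had Lhx2 KO only peaks in 7 of 21 cases (33.3%, median length 24.0 kb) and Olfr1507 only peaks in 2 (9.52%). The start of Ldb1 itself (chr19:46045107-46045350) carried a Lhx2 KO only peak at rank 3828, in no Olfr1507 or control list, beside a shared peak 0.944 kb from the start (rank 1478 in Lhx2 KO, 2605 and 1071 in Olfr1507). Lmx1b, a LIM-homeodomain gene, had 3 Lhx2 KO only peaks (best rank 1091), and Lmo1, Ldb2, Ssbp2 and Ssbp4 had 1 each. The full Olfr1507 lists held the Lmo1 peak at ranks 4999 and 2773. The second of them held the best Lmx1b peak at rank 7821 and the Ldb2 peak at 10480. All 3 control lists held these peaks too. The Lmx1b peak at rank 1220 was in no Olfr1507 or control list, and that at rank 3322 was in 1 control list. The peak counted for Lhx1 lay at the start of Aatf, 4.32 kb away. Lhx4 and Lmo3 had Olfr1507 only peaks.

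Axon guidance genes met Olfr1507 only peaks more often than Lhx2 KO only peaks. Of 24 (median length 151.9 kb), 10 had a Lhx2 KO only peak (41.7%), 15 an Olfr1507 only peak (62.5%) and 10 a shared peak. Robo1 and Robo2, receptors for Slit proteins, had 8 and 5 Olfr1507 only peaks and no Lhx2 KO only peak. Nrp1, a semaphorin receptor gene, had 5 Olfr1507 only peaks (best ranks 737 and 571). Its strongest peak overlapped a weak Lhx2 KO peak and counts as shared: it ranked 3562 in the first Lhx2 KO list, was absent from the second, and ranked 35 and 27 in Olfr1507. A shared peak in Efna5, a guidance ligand gene, ranked 4233 and 310 in Lhx2 KO, against 15 and 73 in Olfr1507. In the other direction, Sema7a, a membrane semaphorin gene, had a shared peak that ranked 26 and 180 in Lhx2 KO and 1126 and 770 in Olfr1507. Pcdh10, a protocadherin gene, had 2 Lhx2 KO only peaks (best rank 371), which the full second Olfr1507 list held at ranks 3569 and 7007.

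Stress and immediate early genes had Lhx2 KO only peaks in 11 of 20 cases (55%, median gene length 4.11 kb), against 2 with an Olfr1507 only peak (10%) and 2 with a shared one. The transcription factor genes Fos (best rank 530), Jun (2300), Jund (2708) and Junb (2101) and the phosphatase gene Dusp1 (954) had Lhx2 KO only peaks. So did the chaperone genes Hspa8 (1149), Hspa5 (2908), Hsp90ab1 (2222) and Dnajb1 (3037). Of these peaks, those at Jun, Jund, Junb, Dusp1, Hspa5 and Hsp90ab1 were in no Olfr1507 or control list. The peak counted for Hsp90ab1 lay at the start of Slc35b2, 3.8 kb away. By contrast, the one 0.254 kb from Hspa8 ranked 13092 in the second Olfr1507 list. Dusp1 and Junb also had Olfr1507 only peaks, at ranks 3620 and 1801. Housekeeping genes had Lhx2 KO only peaks in 3 of 15 (20%, Actb, Pgk1 and Ywhaz), genes of RNA processing and translation in 3 of 24 (12.5%), and general transcription genes in 3 of 20 (15%). The median lengths of these lists were 14.0, 6.27 and 76.8 kb. Olfr1507 only peaks were near 0, 0 and 2 genes of these lists.

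Markers of other cells of the tissue were looked up in the same way. No gene of 14 for basal and progenitor cells (median length 9.36 kb) had a peak of any class. Of 15 markers of sustentacular cells and glands (7.81 kb), Muc5b had a shared peak (rank 323 in Lhx2 KO, 651 and 735 in Olfr1507). Of 15 for glial, immune and vascular cells (16.8 kb), 2 had a Lhx2 KO only peak (13.3%, against 13.2% of all genes): Pdgfrb, and Cd68, whose peak lay at the start of its neighbour Eif4a1. Of 12 immature neuron markers (51.1 kb), 3 had a Lhx2 KO only peak, 3 an Olfr1507 only peak and 3 a shared peak. Each share was 25%, against 13.2% of all genes for Lhx2 KO only, 7.92% for Olfr1507 only and 3.36% for shared peaks. Only Ncam1 had peaks of every class, and 7 of the 12 had a peak of any class. The lists carry no expression, so a marker was only looked up for a peak. No Hox gene out of 39 (3.74 kb) had a peak of any class.

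OR clusters held some of the strongest Ldb1 peaks of the Lhx2 KO libraries. Among the 43 clusters, 22 regions held a peak of any of the 4 lists of 542. Of them, 20 had a Lhx2 KO peak, 12 had an Olfr1507 peak and 6 were in all 4 lists. Over all 1325 regions of these lists the counts were 924 (69.7%), 630 (47.5%) and 62 (4.68%), so a Lhx2 KO peak was the more frequent one throughout. Another 3 were in both Lhx2 KO lists and no Olfr1507 list, against 2 in both Olfr1507 lists and no Lhx2 KO list. The strongest peak of both Lhx2 KO libraries lay here, 12.6 kb from Olfr1274 on chromosome 2 (chr2:90414235-90414614). It ranked 1 and 1 in Lhx2 KO, 268 and 185 in Olfr1507, and 340, 481 and 90 in control neurons. A region 10.8 kb from Olfr9 ranked 34 and 15 in Lhx2 KO and 160 and 140 in Olfr1507, and one 26.3 kb from Olfr448 ranked 434 and 10 in Lhx2 KO and 1019 and 778 in Olfr1507. The opposite case lay 14.4 kb from Olfr749, at ranks 56 and 15 in Olfr1507, against rank 2187 in the first Lhx2 KO list and no peak in the second. No region of the 22 met a CTCF peak. A Rad21 peak of the first library was at 15 of them, and one of the second library at 2. Among all 542 peaks, the first Rad21 library met 22.8% in Lhx2 KO and 18.1% in Olfr1507 (means of 2 libraries). The second met 62.5% and 64.3%, and at least 1 CTCF library met 16.5% and 10.98%. Cluster regions thus met the first Rad21 library more often than these peaks did, and the second less often. These shares count peaks and not joined regions, and the contrast was not tested.

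Around the full lists, 138 cluster regions had a peak in any of the 4 libraries. Of these, 16 were in all 4, 8 in a single Lhx2 KO list alone and 80 in a single Olfr1507 list alone. The full lists run from 542 to 21250 peaks, so these counts cannot be compared between groups. OR genes, with a median length of 0.951 kb, rarely had a peak within 10 kb: 4 of 1109 had a Lhx2 KO only peak (0.361%), 5 an Olfr1507 only peak (0.451%) and 4 a shared peak. At the receptor that defines the sorted cells, a peak 0.057 kb from Olfr1507 was present in the second Olfr1507 list (rank 10748) and in no other Ldb1 list. Another, 2.18 kb away, was in the first Lhx2 KO list only (rank 3137). Of the 3 regions listed in its cluster, the strongest, 52.2 kb from Olfr1507 (chr14:52547880-52548281), was in all 7 Ldb1 lists, at ranks 1057 and 168 in Lhx2 KO, 512 and 703 in Olfr1507, and 443, 379 and 455 in control neurons. It met a Rad21 peak of the first library and no CTCF peak.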

How the data were processed

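Peak lists of 11 ChIP libraries were used: Ldb1 in Lhx2 KO neurons (2), Olfr1507 cells (2) and control neurons (3), and CTCF (2) and Rad21 (2) in control neurons. Input and RNA samples were not analysed here. The submitters' processing notes name cutadapt 1.9.1, Bowtie2 2.3.2, SAMtools 1.3.1, HOMER 4.7 and mm10, without roles; no threshold for peaks is given in the sources used here. Lists were made per library, not pooled. Their score column, as deposited by the authors, holds whole numbers with no known scale between libraries, and only ranked peaks within a list, ties in file order.

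After keeping chromosomes 1 to 19, X and Y, lists were cut to equal length and overlapped (at least 1 base) in Python 3.11.15 with numpy 2.4.6, pandas 2.3.3 and scipy 1.17.1. A CTCF or Rad21 region needs a peak in both libraries, a control Ldb1 region in at least 2 of 3. Gene starts (32851, of 27025 genes; chromosome 18 not in this table) and sequences came from RefSeq GRCm38.p6, the assembly called mm10. OR clusters are runs of at least 3 OR genes with gaps up to 300 kb. Libraries are the replicates, and shares of equal lists were compared by exact permutation. Scripts were tested on simulated peaks. Named regions are the 10 best of each class by mean percentile in its lists, up to 4 members of each gene list by rank, and 9 genes always looked up (Adcy3, Ebf1, Emx2, Kdm1a, Ldb1, Lhx2, Olfr1507, Omp, Rtp1). Of the 10 best Olfr1507 only regions, 1 is not reported here. Further genes of the lists, the 26 regions of the Lhx2 KO lists alone, the OR cluster regions and the printed windows were named after their values were seen. Members and lists were chosen with earlier results of these data known. Of the listed symbols, 1 was not found in the gene table.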

Additional observations from a re-analysis of the deposited data

How the results depend on the processing

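Of 93 alternative values, 81 kept the direction and stayed on the same side of the threshold or within its bounds. Except where the controls were joined, no exact permutation p for a share of equal lists could fall below 0.333. The threshold could not be crossed there, so for these shares the count records direction and not size. Joining the 3 control libraries to Olfr1507 took the promoter difference (11.97 points) and the CTCF difference (2.29 points) to exact permutation p = 0.0476. The Rad21 difference was then 2.84 points (exact permutation p = 0.190) and the OR cluster difference 0.111 points (exact permutation p = 0.857). The Rad21 difference reversed to -0.28 points at 50% reciprocal overlap and to -1.75 with the second Rad21 library alone; the cause was not tested. Overlap of the first lists was 11.6% at 250 peaks. Lhx2 KO only peaks numbered 1558 against both full Olfr1507 lists, which are longer. Promoter shares at 0.5 and 2.5 kb were 31.5% and 40.2% (Lhx2 KO only) and 2.43% and 8.32% (Olfr1507 only), and genes within 50 kb of such a peak numbered 5604 and 3398. At 250 peaks the control Ldb1 difference was -4.8 points, the strong control one -24.0 and the OR cluster one 2.8. Leaving out 1 library, differences ran between 10.0 and 14.8 points (promoter), 2.21 and 2.95 (CTCF), 0.646 and 6.55 (Rad21), -9.78 and -8.86 (control Ldb1), -56.6 and -38.7 (strong control) and 0.0923 and 1.57 (OR cluster). The lone sample then has no spread of its own.

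The groups share replicate numbers, which the labels tie to no animal or day. With the replicate number as a block the differences were unchanged by construction (promoter 12.4 points, CTCF 2.58, Rad21 3.60, control Ldb1 -9.32, strong control -47.7, OR cluster 0.830). Pairing allows no exact p below 0.5 and changed no call. Joining the controls was not run for the measures that the control libraries define. Ties, the other gene end and peaks away from starts were added after seeing the data. Depth is unknown, and scores are coarse in the Lhx2 KO lists, which limits any order within them.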
